A study of Mus musculus with 2 samples.

Results

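The transcripts described here belong to 33 genes that build or mark epithelial cell contacts: 11 desmosome genes, 10 tight junction genes, 4 genes of the hemidesmosome and its laminin anchor, 2 plakins of the cornified envelope and 6 genes of epithelial identity. They were chosen by function, with earlier results of these data known. Of the 33, 31 had a probe set assigned to exactly 1 gene symbol, among 19938 genes measured in this way. Dsc1 and Dsg1a were not analysed here by a probe set of their own. For Dsg1a, a probe set shared by Dsg1a, Dsg1b and Dsg1c had log2 values of 3.92 after β-catenin siRNA and 4.09 after control siRNA. Expression was measured on Affymetrix whole-transcript arrays in dermal cells from the back skin of newborn (P0) C57BL/6 mice. Cells were kept for 24 h in culture and then transfected for 48 h at 10 nM with β-catenin siRNAs (1 array) or with control siRNA (1 array). Both groups were transfected with small interfering RNA (siRNA), which lowers the transcript whose sequence it matches. The labels do not give the number of pups or cultures behind an array, or the number of β-catenin siRNAs.

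Desmosomes join the keratin filaments of neighbouring epithelial cells through cadherins of the desmoglein and desmocollin families, which bind plakophilins, plakoglobin and desmoplakin on the inside of the membrane. Tight junctions seal the space between cells with claudins and occludin, and hemidesmosomes fasten basal keratinocytes to the basement membrane. In skin these structures belong mainly to the epidermis and the hair follicle epithelium, while dermal fibroblasts express some of the components that are shared by many cell types. β-catenin itself links cadherins to the actin cytoskeleton at adherens junctions and activates genes downstream of Wnt signals, and plakoglobin is its close relative.

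With 1 array per group no test was possible, and each difference below is a single subtraction (β-catenin siRNA minus control siRNA, on the log2 scale of the deposited values). Whether it exceeds the spread between cultures is therefore unknown. As a guide to scale, the robust SD of the difference, a scaled median absolute deviation, was computed over the 500 genes nearest in mean level and is called the local SD. It mixes array noise, differences between cultures and effects of the siRNA. A gene counted as at or above the level filter if the higher of its values reached 5.13, the median of all gene means. Values under it were dim, but whether they exceeded background was not measured here. In RNA from a whole culture, fewer cells of a type and less RNA per cell cannot be told apart.

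The target transcript Ctnnb1 had a value of 9.34 after β-catenin siRNA and 10.48 after control siRNA, a difference of -1.14. The label of the cells was set against marker lists. All 11 fibroblast markers reached the level filter, among them Col1a1, Pdgfra and Vim, as did 5 of 12 measured keratinocyte markers, 3 of 7 melanocyte markers, 1 of 9 endothelial markers, 1 of 6 macrophage and leukocyte markers, 0 of 4 Schwann cell markers and 0 of 6 skeletal muscle markers. The filter lies at the median of all gene means, and 10197 of the 19938 genes reached it.

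Most of the junction genes differed little between the arrays, and Cldn1 stood apart from the rest. Of the 31 measured genes, Cldn1, a claudin of the epidermal barrier, was more than 1.5-fold higher after β-catenin siRNA, and F11r, a tight junction adhesion molecule, was lower by just over 1.5-fold. The other 29 lay within 1.5-fold. Over all genes, the share past 1.5-fold was 2.23% on the higher side and 2.35% on the lower side, so 1 of 31 in each direction was close to the background. Small positive differences were the more common: 20 of the 31 were higher by any amount, beside 41.6% of all genes, and the median difference was 0.10, beside -0.02 over all genes. These genes belong to linked structures and are not independent of each other.

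The level filter was reached by 15 of the 31 genes, close to the share over all genes (10197 of 19938). The other 16 were under it on both arrays. Both values of 12 genes reached it, Cldn1 and Epcam reached it only after β-catenin siRNA, and Lamb3 only after control siRNA. Among the 15, some of which passed through 1 array only, 11 were higher by any amount (45.8% of the 10197 genes that reached the filter), 1 was higher by 1.5-fold or more (2.76%) and 1 was lower by as much (1.84%).

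**Figure D1:**
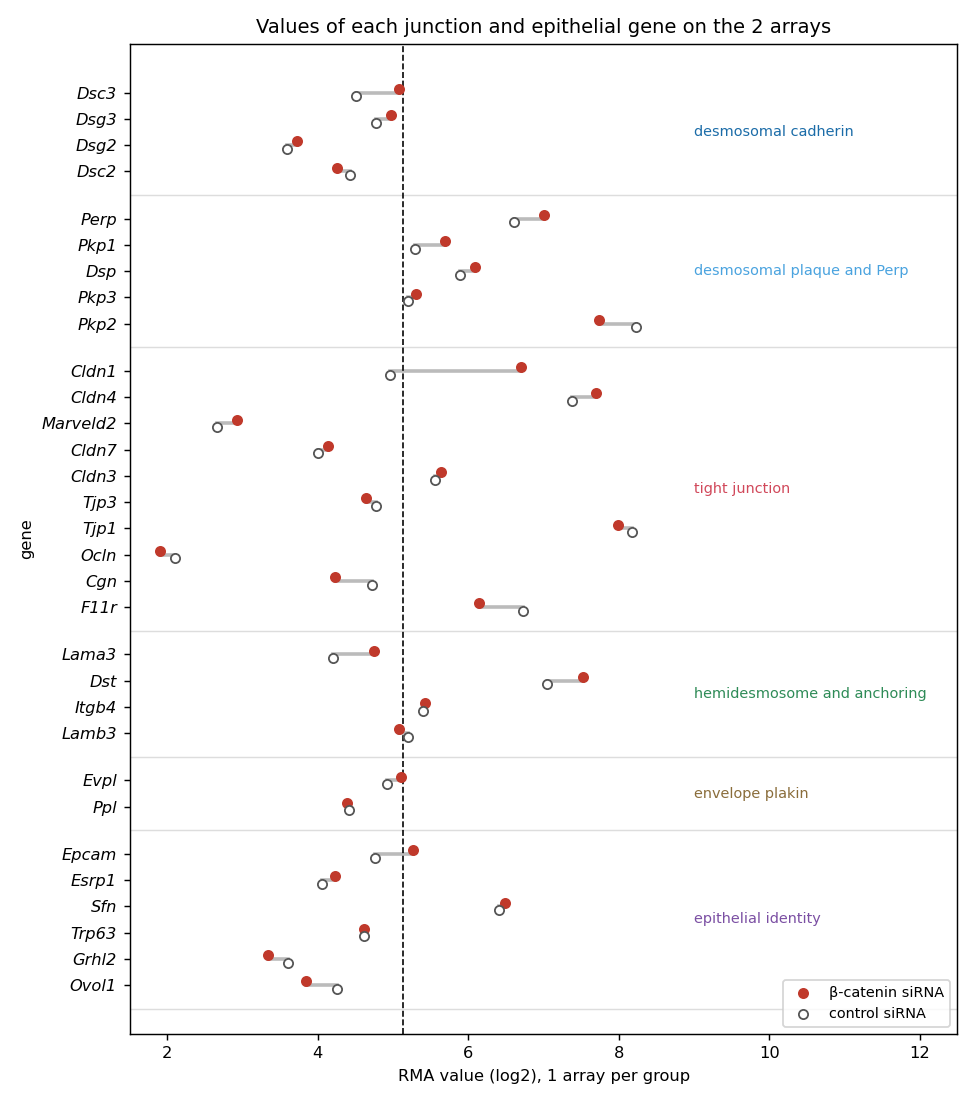
Log2 RMA values of the 31 measured genes on the horizontal axis, by class, with filled points for the β-catenin siRNA array and open points for the control siRNA array, joined by a line for each gene; the dashed line is the level filter at 5.13. The pair of Cldn1 points lies farthest apart, at 6.69 after β-catenin siRNA and 4.96 after control siRNA, and all 4 desmosomal cadherin genes lie left of the dashed line.

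The desmosomal cadherins were dim on both arrays. Dsg3, a desmoglein of basal and lower epidermal layers, had log2 values of 4.97 after β-catenin siRNA and 4.77 after control siRNA. Dsg2, the desmoglein found in simple epithelia and heart as well, had 3.72 after β-catenin siRNA and 3.59 after control siRNA. Dsc3, the desmocollin of the basal epidermis, had 5.08 after β-catenin siRNA and 4.51 after control siRNA. That difference of 0.577 was just inside the 1.5-fold limit of 0.585. Dsc2, the most widely expressed desmocollin, was the cadherin with the opposite sign, at 4.26 after β-catenin siRNA and 4.42 after control siRNA. The median of the 4 differences was 0.17. All of these genes lie in 1 cluster on chromosome 18, where Dsc2 and Dsc3 are direct neighbours with differences of -0.16 and 0.58, and Dsg2 and Dsg3 direct neighbours with 0.13 and 0.20.

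The genes of the desmosomal plaque, together with Perp, all reached the level filter. Dsp encodes desmoplakin, which links the plaque to keratin filaments, and had 6.09 after β-catenin siRNA and 5.88 after control siRNA. Pkp1, the plakophilin of suprabasal epidermis, had 5.68 after β-catenin siRNA and 5.29 after control siRNA. Pkp3, a plakophilin of most epithelia, had 5.30 after β-catenin siRNA and 5.20 after control siRNA. Thus 3 plaque genes were slightly higher, by 1.07-fold to 1.31-fold. Perp, a membrane protein of desmosomes whose gene is a target of p53 and its relative p63, had 7.01 after β-catenin siRNA and 6.61 after control siRNA, a difference of 0.40. Pkp2, a plakophilin of simple epithelia, heart and some mesenchymal cells, went the other way, with 7.74 after β-catenin siRNA and 8.22 after control siRNA. It was 1.40-fold lower, a difference of -0.49 or -2.44 local SDs, and it was the only plaque gene with a negative difference. The median of the 5 genes was 0.20.

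Of the remaining desmosome genes, listed beside the members, 5 of 5 were measured and none differed by 1.5-fold. Their median was -0.15, and 0.04 over the 2 genes that reached the level filter, Jup and Pkp4. Jup encodes plakoglobin, which can take the place of β-catenin at adherens junctions, and had 8.37 after β-catenin siRNA and 8.11 after control siRNA, a difference of 0.26. Pkp4, a plakophilin relative also found at adherens junctions, differed by -0.17. Dsg1b, Dsg1c and Dsg4 were under the level filter on both arrays, with differences of 0.27, -0.15 and -0.20.

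The tight junction genes had the widest range of the classes, from -0.59 to 1.73, and no common direction: 5 were higher and 5 lower, with a median of -0.02. Cldn1 had a log2 value of 6.69 after β-catenin siRNA and 4.96, under the level filter, after control siRNA. It was 3.32-fold higher, a difference of 1.73 or 6.42 local SDs, and had rank 19 from the top among the 10197 genes that reached the filter. The differences of all other claudin genes measured lay between -0.51 and 0.32. The control value was dim, so the fold rests on a low signal on 1 array. Cldn4, a claudin of simple and stratified epithelia, had 7.69 after β-catenin siRNA and 7.37 after control siRNA. Cldn3, its direct neighbour on chromosome 5, had 5.64 after β-catenin siRNA and 5.56 after control siRNA, and Cldn7 had 4.14 after β-catenin siRNA and 4.003 after control siRNA. These 3 claudins were thus 1.06-fold to 1.25-fold higher. Around Cldn1 on chromosome 16, the direct neighbour Cldn16 differed by -0.37 and Trp63, with 1 coding gene between, by 0.01, both under the level filter.

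F11r encodes the junctional adhesion molecule JAM-A, which is found in epithelia, endothelium and blood cells. It had 6.14 after β-catenin siRNA and 6.72 after control siRNA, a difference of -0.586 or -2.59 local SDs, just past the 1.5-fold limit. Cgn, which encodes the plaque protein cingulin, was also lower, with 4.22 after β-catenin siRNA and 4.71 after control siRNA, but both values were dim. Tjp1, the gene of the scaffold ZO-1, which cells of many types express, had 7.99 after β-catenin siRNA and 8.17 after control siRNA. Its relative Tjp3, the ZO-3 gene, had 4.64 after β-catenin siRNA and 4.77 after control siRNA. Ocln and Marveld2 encode membrane proteins of the seal, and both were under the level filter on both arrays. Ocln, the occludin gene, had 1.90 after β-catenin siRNA and 2.11 after control siRNA. Marveld2, which encodes tricellulin and lies beside Ocln on chromosome 13, had 2.93 after β-catenin siRNA and 2.66 after control siRNA, so the neighbours differed with opposite signs, at -0.21 for Ocln and 0.27 for Marveld2.

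**Figure D2:**
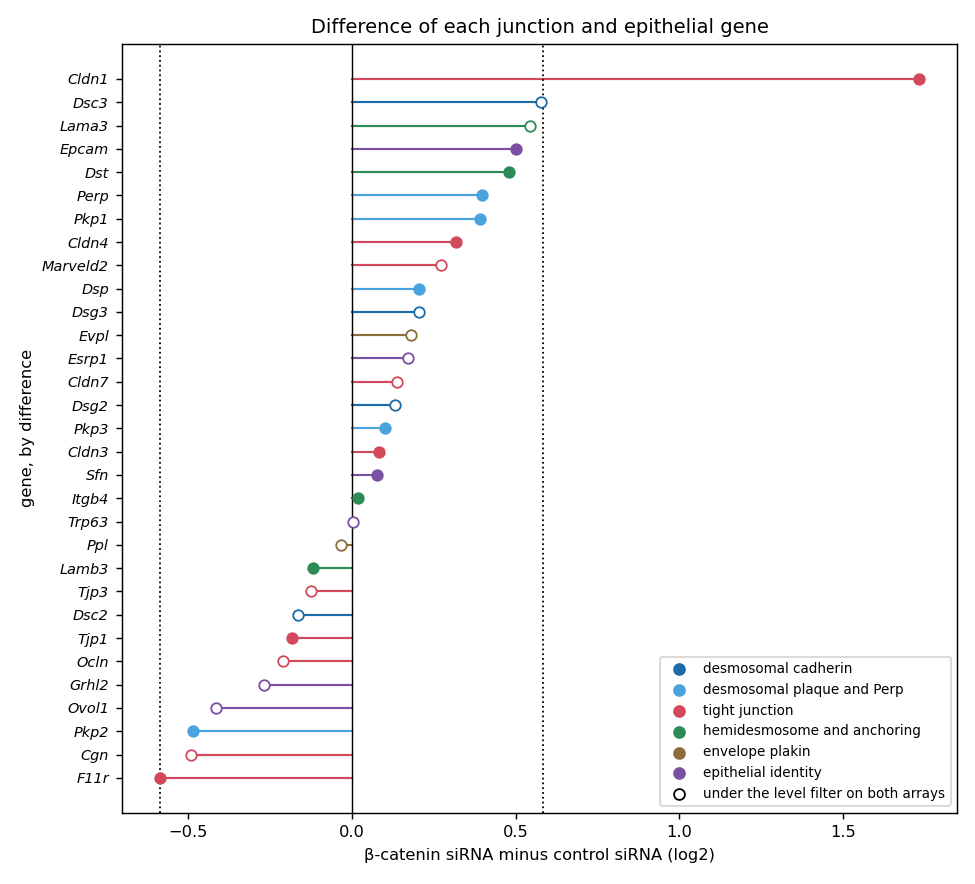
Difference of each of the 31 genes (β-catenin siRNA minus control siRNA, log2, horizontal axis), ordered from highest to lowest and coloured by class; open points are under the level filter on both arrays and dotted lines mark 1.5-fold. Cldn1 at 1.73 is far right of the dotted line, F11r at -0.59 lies on the left one, and Dsc3 at 0.58 lies just inside the right one.

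The bases before the transcription start of Cldn1 and F11r, the pair past 1.5-fold, show the upstream sequence of the genes with the highest and lowest differences. The windows are the 250 bases before the start in the RefSeq table of GRCm38.p6, written 5′ to 3′ on the strand of the gene, at chr16:26371840-26372089 (minus strand) for Cldn1 and chr1:171437311-171437560 (plus strand) for F11r. Capitals mark every match to any of 3 motifs searched on both strands.
Cldn1: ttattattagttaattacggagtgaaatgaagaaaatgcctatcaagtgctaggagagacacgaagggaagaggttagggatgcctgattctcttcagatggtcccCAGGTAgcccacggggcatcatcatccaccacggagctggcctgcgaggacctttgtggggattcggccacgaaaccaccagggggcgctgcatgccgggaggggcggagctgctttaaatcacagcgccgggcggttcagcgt
F11r: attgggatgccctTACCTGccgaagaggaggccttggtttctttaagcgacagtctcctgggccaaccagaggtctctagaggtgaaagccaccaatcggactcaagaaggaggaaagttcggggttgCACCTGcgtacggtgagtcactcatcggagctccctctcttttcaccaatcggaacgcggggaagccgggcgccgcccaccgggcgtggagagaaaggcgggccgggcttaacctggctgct
The motifs were the TCF/LEF motif (CTTTG followed by a pair of letters that are each A or T), through which β-catenin acts on DNA, the grainyhead motif (AACNNGTT) and the E-box bound by Snail and Zeb repressors (CAGGTG or CAGGTA). All capitals in these windows are E-box letters, 144 bases before the start in Cldn1 and 122 and 237 bases before it in F11r, and none of the matches overlap.

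A window was found for 15 of the 33 genes, 21 windows in all since some genes have several starts. E-box letters were in 11 of the 21 windows (52.4%), beside 25.4% of 32851 windows of all genes, and they occurred in genes with positive and negative differences, Cldn1, Cldn4, Cldn7, Dst, Epcam, F11r, Lamb3, Ocln, Sfn and Tjp3. TCF/LEF letters were in 2 windows (9.52%, beside 14.8% of all), those of Cldn4 and Dst. Grainyhead letters were in 2 as well, those of Cgn and Sfn (9.52%, beside 3.64% of all). A match of letters is a description and not a binding site. The genes of the E-box factors were within 1.5-fold: Snai1 differed by -0.04, Snai2 by 0.25, Zeb1 by 0.11 and Zeb2 by -0.15. A part of these factors in the differences was not tested.

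Of 20 other claudin genes measured, none differed by 1.5-fold, 5 were higher, 13 lower and the others equal, and the median was -0.12. Only Cldn12 and Cldnd1 reached the level filter, with differences of -0.51 and -0.07. Cldnd1 entered the list through its synonym Cldn25. Other tight junction genes, 18 of 19 measured, held none at 1.5-fold either, with 4 higher, 13 lower and a median of -0.07 (over the members of the class, -0.02). Beside these 2 lists, 8304 of all 19938 genes were higher and 10466 lower. Among the 13 other tight junction genes at or above the level filter, the largest differences belonged to the scaffold genes Magi3 at 0.42 and Patj at 0.38, and to the polarity gene Pard3 at -0.29. The control values of Magi3 and Patj, 5.07 and 4.83, were under the level filter.

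Of the 4 anchoring genes, Lama3 and Dst were higher after β-catenin siRNA by at least 1.39-fold, and the others differed by less. Lama3 and Lamb3 encode chains of the laminin that anchors basal keratinocytes. Lama3 had 4.75 after β-catenin siRNA and 4.21 after control siRNA, 1.46-fold higher but under the level filter on both arrays. Lamb3 had 5.08 after β-catenin siRNA and 5.20 after control siRNA, so the genes of these partner chains differed with opposite signs. Itgb4, the β4 integrin subunit specific to hemidesmosomes, had 5.42 after β-catenin siRNA and 5.40 after control siRNA, a difference of 0.02. Dst encodes dystonin, whose epithelial form ties hemidesmosomes to keratin and whose other forms occur in muscle and nerve. It had 7.52 after β-catenin siRNA and 7.04 after control siRNA, 1.39-fold higher, or 2.14 local SDs. The median of the 4 genes was 0.25, and 0.02 over the 3 that reached the level filter.

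Of 8 measured hemidesmosome and basement membrane genes outside the members, 2 were higher and 6 lower, with a median of -0.22. Over all 19938 genes, 8304 were higher and 10466 lower, with a median of -0.02. Itga6, the α6 integrin subunit that pairs with β4, had 6.39 after β-catenin siRNA and 7.18 after control siRNA, 1.72-fold lower and the only one past 1.5-fold. Itga3, another laminin-binding integrin subunit, differed by -0.31, and Col7a1, the collagen of anchoring fibrils, which fibroblasts also make, by -0.28. The α6 and β4 subunit genes thus differed unequally, at -0.78 for Itga6 and 0.02 for Itgb4.

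The envelope plakins were under the level filter on both arrays. Ppl, the periplakin gene, had 4.39 after β-catenin siRNA and 4.42 after control siRNA. Evpl encodes envoplakin, the partner with which periplakin forms a scaffold under the membrane of differentiating keratinocytes, and had 5.10 after β-catenin siRNA and 4.92 after control siRNA. Neither differed by more than 1.13-fold. Of 12 measured cornified envelope genes outside the members, 4 reached the filter. Lor (loricrin), under it on both arrays, differed by -0.70. It was the only gene of the 12 past 1.5-fold, beside 2.35% of all genes on the lower side. None of the 4 differed by 1.5-fold, with Sbsn (suprabasin) at 0.32, Sprr1a at -0.25 and Cst6 (cystatin M/E) at 0.10. The control value of Cst6, 5.09, was under the filter.

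Genes of epithelial identity showed no common direction, with 4 higher, 2 lower and a median of 0.04. Epcam, an adhesion molecule of simple epithelia and of parts of the hair follicle, had 5.26 after β-catenin siRNA and 4.76, under the filter, after control siRNA. It was 1.41-fold higher, or 2.03 local SDs. Sfn encodes stratifin, a protein of keratinocytes and a p53 target, and had 6.48 after β-catenin siRNA and 6.40 after control siRNA. The second Sfn probe set, the only second one among the members, gave 6.17 after β-catenin siRNA and 6.02 after control siRNA, a difference of 0.16 beside 0.08.

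The transcription and splicing factors among them were dim. Trp63 encodes p63, the master regulator of stratified epithelia, and had 4.62 after β-catenin siRNA and 4.61 after control siRNA. Esrp1, an epithelial splicing regulator, had 4.22 after β-catenin siRNA and 4.05 after control siRNA. Grhl2, a grainyhead-like activator of junction genes, had 3.33 after β-catenin siRNA and 3.60 after control siRNA. Ovol1, a zinc finger repressor that limits the growth of epidermal progenitor cells, had 3.84 after β-catenin siRNA and 4.25 after control siRNA, 1.33-fold lower. The genes of the factors that promote epithelial identity thus showed a difference near 0 (Trp63), a small positive one (Esrp1) and small negative ones (Grhl2 and Ovol1). Among 20 other measured epithelial regulators and surface genes the median was 0.03. Ehf and Ap1m2, both under the level filter, differed by -0.64 each. They were the only genes of the 20 past 1.5-fold, 2 on the lower side, beside 2.35% of all genes. Of the 6 that reached the filter, none differed by 1.5-fold, with the protease inhibitor gene Spint1 at 0.39, Klf5 at -0.35 and Klf4 at 0.25. The control value of Spint1, 5.02, was under the filter.

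**Figure D3:**
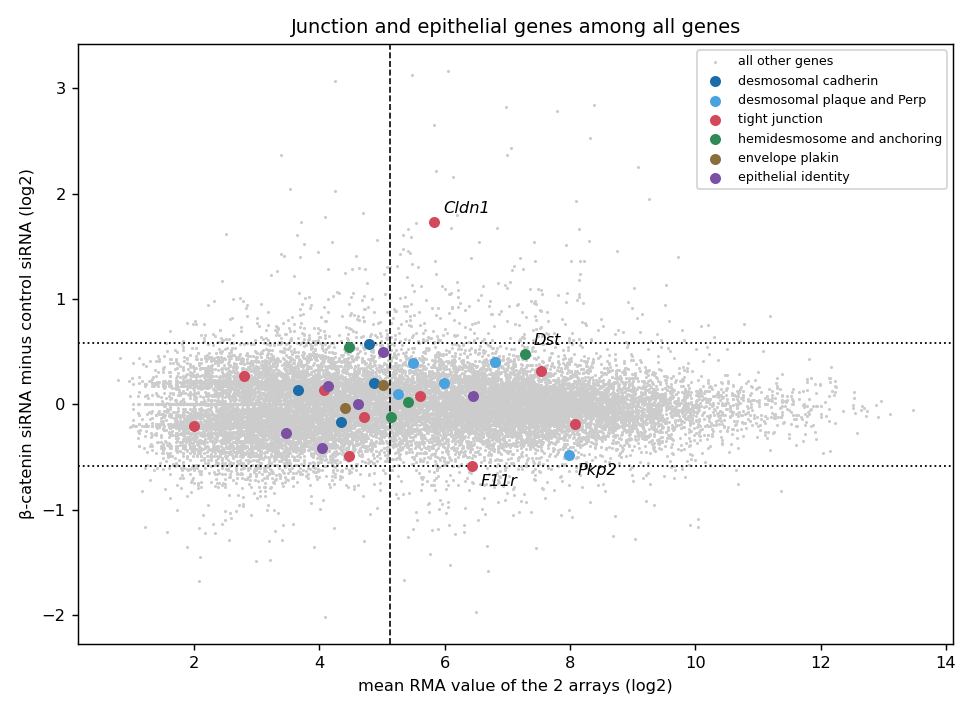
Difference (β-catenin siRNA minus control siRNA, log2, vertical axis) against the mean RMA value of the 2 arrays (log2, horizontal axis) for all 19938 genes, with the 31 junction and epithelial genes coloured by class; dotted lines mark 1.5-fold and the dashed line the level filter. Apart from Cldn1 at 1.73, the coloured points lie within the cloud of all genes.

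As a reading of epithelial cells in the cultures, the keratinocyte markers were set beside the junction genes, without a test of the difference between the lists. The marker list, too, was chosen with earlier results of these data known. Of 12 measured keratinocyte markers, 5 were at least 1.5-fold higher, none was lower by that much, and the median was 0.35, beside 1 of 31 and 0.10 for the junction genes and 2.23% and -0.02 for all genes. Krt5, a keratin of basal keratinocytes, had 8.65 after β-catenin siRNA and 7.64 after control siRNA. Krt17, a keratin of hair follicles and activated epidermis, had 7.38 after β-catenin siRNA and 6.59 after control siRNA. Cdh1, the E-cadherin gene, had 5.98 after β-catenin siRNA and 5.23 after control siRNA. Col17a1, a hemidesmosome gene with both values at the filter, was within 1.5-fold. It had 5.43 after β-catenin siRNA and 5.22 after control siRNA, a difference of 0.21. Krt14, the partner of Krt5, and Krt16 were 1.54-fold and 1.55-fold higher, and Krt16 was dim, with 3.98 after β-catenin siRNA and 3.35 after control siRNA. Other markers under the level filter on both arrays went both ways: Krt15, a keratin of basal and follicle stem cells, was 1.46-fold lower, Krt6a differed by -0.28, Krt10 by 0.0, Krt1 by 0.22, Calml3 by 0.16 and Krt6b by 0.49. Probes of closely related keratins can share signal. Summed on the linear scale, the 12 markers came to 1213 after β-catenin siRNA and 760.3 after control siRNA, and the 31 junction genes to 1893 after β-catenin siRNA and 1798 after control siRNA. Such sums rest mostly on the brightest genes. With both values at the filter, 5 markers summed to 1078 after β-catenin siRNA and 631.5 after control siRNA. The 12 junction genes of that kind, without Cldn1, summed to 1398 after β-catenin siRNA and 1397 after control siRNA. Of these 12, 9 were higher and 3 lower: F11r and the brightest pair, Tjp1 and Pkp2. The part of keratinocyte number in the values of Cldn1 and the other junction genes was not tested.

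The other epithelial lists differed among themselves. Among 5 simple epithelial keratins, Krt19 was 2.07-fold lower, with 6.57 after β-catenin siRNA and 7.62 after control siRNA, Krt18 differed by 0.56, Krt7 by -0.14, and the median was -0.14. The control value of Krt18, 4.69, was under the level filter. Of 12 hair follicle epithelium markers, 3 were at least 1.5-fold higher, beside 2.23% of all genes. Their median was 0.09, and 0.63 over the 3 that reached the level filter. Sox9 differed by 1.39, Krt79 by 0.63, Edar, under the level filter, by 0.77 and Lgr5 by -0.37. Among 6 epithelial adherens junction genes, Cdh1 was the only one past 1.5-fold. Vezt (vezatin) differed by -0.42 and Ctnnd1, the p120-catenin gene, by 0.22, and the median was 0.01.

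Genes of the mesenchymal cells differed in both directions. Among 11 fibroblast markers, 1.5-fold was passed by 3 higher genes and 1 lower gene, beside 2.23% and 2.35% of all genes. The median difference was 0.07. The proteoglycan genes Lum and Dcn differed by 1.29 and 0.84, the receptor gene Pdgfra by 0.75, and the protease gene Fap by -0.76, with a β-catenin siRNA value of 4.49 under the filter. Of 8 mesenchymal transition genes, none differed by 1.5-fold, with Fn1 (fibronectin) at 0.35, Twist1 at -0.34 and Snai2 at 0.25. Markers of other cell types were mostly under the level filter. The 3 melanocyte markers that reached it, Tyrp1, Pmel and Dct, differed by -0.38, -0.27 and -0.01, the endothelial marker Kdr by -0.51 and the myeloid marker Lyz2 by 0.63. Pmel and Kdr reached the filter only after control siRNA, and Lyz2 only after β-catenin siRNA.

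**Figure D4:**
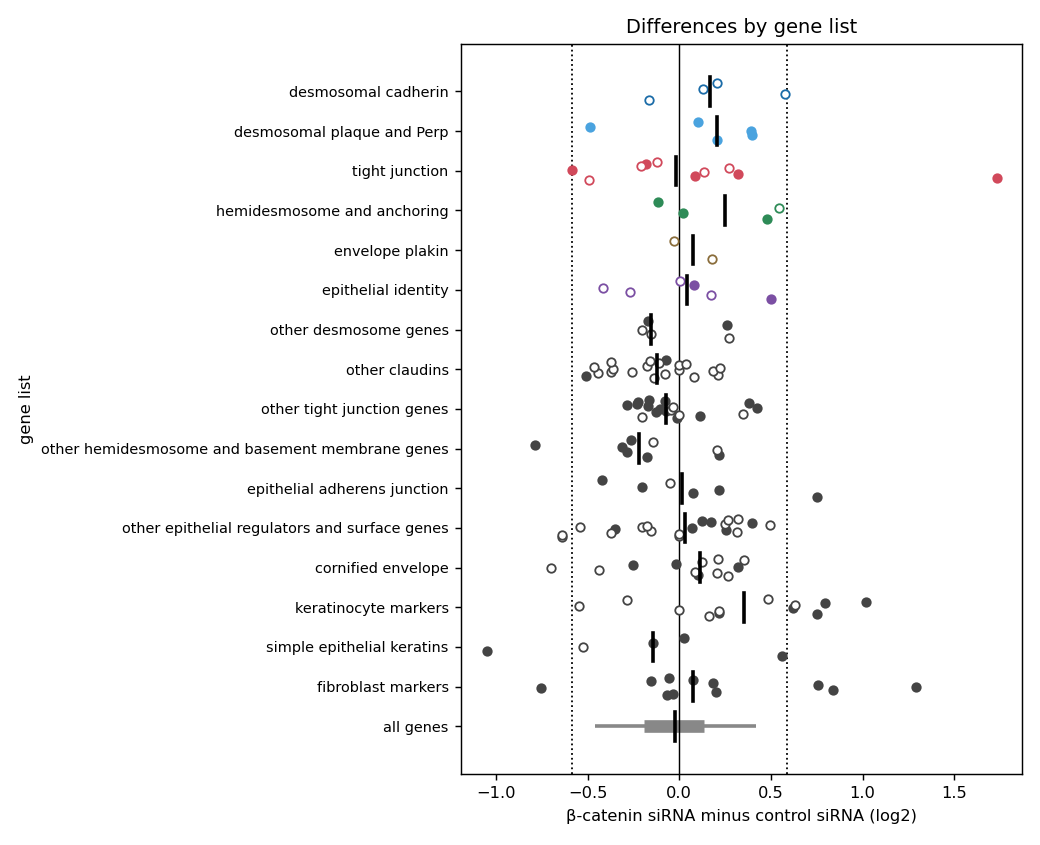
Differences (β-catenin siRNA minus control siRNA, log2, horizontal axis) of the members by class (coloured) and of 10 further gene lists (grey), 1 point per gene, open where both values are under the level filter; the black bar is the median of all measured genes of a list, and the lowest line shows all genes (thick, 25th to 75th percentile, -0.19 to 0.14; thin, 5th to 95th, -0.46 to 0.42). The keratinocyte markers have the highest median of the lists drawn, 0.35, while the medians of the member classes lie between -0.02 and 0.25.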

How the data were processed

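The deposited table holds 1 log2 value per probe set and array for 28944 probe sets. The authors made the values by robust multi-array average (RMA), which subtracts background, equalises the distributions of the arrays and summarises probes, per the submitters' processing notes. Versions and filters are not given in the sources used for this report. The log2 scale was judged from the range, 0.485 to 13.5. RMA removes overall differences in RNA yield and shrinks differences of dim probe sets. Precision is limited by the number of arrays, 1 per group.

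The platform annotation gave 1 gene symbol for 21789 probe sets, several for 1621 and no symbol for 5534. For 21698, the gene identifier was found in the RefSeq table of GRCm38.p6, which supplied current symbols. The probe set with the highest mean stood for each of 19938 genes. The control siRNA value was subtracted from the β-catenin siRNA value, and sizes of 1.5-fold were counted with no test. The members and all gene lists were chosen with earlier results of these data known. All members are named, and of each other list the 3 largest absolute differences among genes at or above the level filter. Other genes are named as values after their values were seen: the desmogleins outside the members, Cldn16, Snai1, Zeb1, Zeb2, Krt1, Krt6a, Krt6b, Krt10, Krt14, Krt15, Krt16, Calml3, Col17a1, Edar, Ehf, Ap1m2, Lor and the value of Pdgfra. Col1a1, Pdgfra and Vim are named as examples of fibroblast markers. Alternatives were centring (median or lowess, span 0.3), the mean of probe sets, several-symbol probe sets, other level filters and a 2-fold size. The counting was tested on simulated data. Python 3.11.15, pandas 2.3.3 and statsmodels 0.14.6 were used.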

Additional observations from a re-analysis of the deposited data

How the results depend on the processing

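No paired analysis was possible because each group had 1 array, and for the same reason no replicate could be left out. Over 4 alternatives (both centrings, the mean of probe sets and probe sets with several symbols), the 124 recomputed differences of members moved by less than 0.157, the pooled SD among differences given by separate probe sets within 594 genes, and none turned sign. Much of this was fixed in advance. Median centring added the same amount to every gene. Of the measured members, 30 had 1 probe set, so the mean of probe sets could change only the difference of Sfn. No measured member had a probe set with several symbols, so that setting could not change their differences. The level filter was the median of gene means within each setting, so the members that reached it could change. Their median was 0.10, but 0.18 with the mean of probe sets and 0.14 with several-symbol probe sets. F11r was within 1.5-fold after median centring (-0.56) and lowess centring (-0.57), so the count of genes at least 1.5-fold lower was 0 under both, and 0 at a size of 2-fold. Dsc3, under the level filter, passed 1.5-fold under the same centrings (0.60 and 0.59). With both values required to reach the level filter, Cldn1 dropped out and the count of genes at least 1.5-fold higher was 0. Against 0.02 over the anchoring genes at the level filter, the median was 0.25 without the filter and 0.25 with both values above it, and for the identity genes it was 0.042 and 0.078, against 0.29. The tight junction median, 0.08 over the 5 genes at the filter, was -0.02 without it and -0.05 with both values above it. The keratinocyte marker median was 0.75 over the 5 at the filter and 0.35 without it, that of the hair follicle markers was 0.63 over the 3 at the filter, 0.31 with the mean of probe sets or with several-symbol probe sets and 0.09 without the filter, that of the other desmosome genes was 0.04 over the 2 at the filter and -0.15 without it, and the macrophage and leukocyte list had 0.63 from Lyz2 alone and -0.19 without the filter. The filter settings, and both probe set settings, change which genes are counted. In the main analysis no desmosomal cadherin or envelope plakin gene reached the filter, so their class medians were not compared across settings.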
